A study of Homo sapiens with 4 samples.

Results

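The interleukin-1 family described here comprised 9 genes, chosen by name: the ligands IL1A, IL1B and IL18, the antagonists IL1RN and IL18BP, and the receptor chains IL1R1, IL1R2, IL1RAP and IL18R1. All 9 were represented among the 19775 genes that the platform annotation names on the array, by 20 probe sets in all, a probe set being a group of short probes that reports 1 transcript or a few. The genes were picked with earlier results of these data known, so every value below is a description of them and none is a test.

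Gene expression was measured in U937, a human myelomonocytic cell line established from a histiocytic lymphoma. The knock-down cells, U937-shPIR#7, carried the shPIR#7 short hairpin against PIR in the lentiviral vector pSICO-R, and the control cells, U937-pSICO, carried that vector empty. The PIR product, pirin, is a nuclear iron-binding protein known to bind the NF-kB partner BCL3. The labels name no stimulus of the cells in either group and 1 hairpin. For each condition, RNA of 3 extractions was pooled in equal parts, and the pool was put on 2 HG-U133 Plus arrays, so arrays of 1 pool share their RNA and the cultures were not repeated on separate arrays. Each SD below is thus technical spread between arrays of 1 pool, and no p-value for the condition can be had.

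The interleukin-1 family holds inflammatory cytokines and their antagonists, and interleukin-1 beta is made above all by monocytes and macrophages. Interleukin-1 alpha and beta bind the receptor chain IL1R1, which then recruits the accessory chain IL1RAP and signals through the adaptor MYD88 to NF-kB, and interleukin-18 acts in the same way through IL18R1 and IL18RAP. The system is held in check by the receptor antagonist IL1RN, which occupies IL1R1 without signalling, by the decoy receptor IL1R2, and by IL18BP, a secreted protein that binds and neutralises interleukin-18. The precursors of interleukin-1 beta and interleukin-18 are cut to their active forms by caspase-1 in inflammasomes, so mRNA levels do not give the levels of active cytokine.

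Upstream sequences are shown for members that differed in opposite directions between the pools, so that the genes can be compared by the letters before their start sites. RefSeq promoter entries (GRCh38.p14) matched 8 of the 9 members, with 19 start-site windows in all, and IL18 had no match. Each sequence below is the 250 bases before a start site, on the strand of the gene. Capitals mark matches, on either strand, to TGANTCA (AP-1), TTGCNNAA (C/EBP), GAGGAAGT (ETS) or the NF-kB consensus. None of these motifs overlapped another in these windows. The first gene is IL1B, whose signal was lower in the knock-down pool, at chr2:112836780-112837029 on the minus strand. The next is IL1RN, whose signal was higher, at chr2:113117721-113117970 on the plus strand, the most upstream of its 3 start sites. IL18BP, also higher, follows with chr11:71998659-71998908 on the plus strand, the most upstream of its 4. IL1RAP, the member with the largest difference, is at chr3:190513835-190514084 on the plus strand.
IL1B: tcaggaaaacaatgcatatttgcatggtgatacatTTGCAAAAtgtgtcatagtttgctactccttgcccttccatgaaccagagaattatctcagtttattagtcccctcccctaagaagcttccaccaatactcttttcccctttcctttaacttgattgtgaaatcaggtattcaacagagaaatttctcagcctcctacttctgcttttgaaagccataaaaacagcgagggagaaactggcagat
IL1RN: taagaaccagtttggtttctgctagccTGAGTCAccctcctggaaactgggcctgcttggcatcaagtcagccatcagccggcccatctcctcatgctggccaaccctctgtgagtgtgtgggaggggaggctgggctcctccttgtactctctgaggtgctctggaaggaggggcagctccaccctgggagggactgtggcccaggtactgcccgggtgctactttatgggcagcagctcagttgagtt
IL18BP: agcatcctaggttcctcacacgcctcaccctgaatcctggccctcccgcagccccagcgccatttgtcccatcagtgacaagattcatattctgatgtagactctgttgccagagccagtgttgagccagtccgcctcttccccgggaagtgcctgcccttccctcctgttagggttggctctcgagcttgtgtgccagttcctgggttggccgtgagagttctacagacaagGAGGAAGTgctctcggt
IL1RAP: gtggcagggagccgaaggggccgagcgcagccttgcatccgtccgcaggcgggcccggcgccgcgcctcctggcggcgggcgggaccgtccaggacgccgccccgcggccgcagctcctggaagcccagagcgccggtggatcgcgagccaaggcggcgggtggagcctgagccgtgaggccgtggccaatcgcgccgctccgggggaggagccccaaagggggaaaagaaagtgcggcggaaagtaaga

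The IL1B window held 1 match to the C/EBP motif, 208 to 215 bases before the start, and the printed IL1RN window held 1 match to the AP-1 motif, 217 to 223 bases before it. The printed IL18BP window held 1 match to the ETS motif, 10 to 17 bases before the start, and the IL1RAP window held none of the 4 motifs. Over the 19 member windows, some of which overlap, 3 held the AP-1 motif, against 6.57% of all 35116 windows of this length. The C/EBP motif was in 1 of the 19, against 9.05% of all windows, and the ETS motif in 2, against 2.17%. Both windows with the ETS motif belong to IL18BP, overlap and hold the same site. The windows with the AP-1 motif were an IL1RN window and overlapping IL1A windows that share a site. The other IL1RN windows held none of the 4 motifs, and neither did the remaining IL18BP windows. Which start sites these cells use was not measured. None of the 19 matched the NF-kB consensus, which 5.21% of all windows did. These matches describe letters and not binding.

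PIR, the target of the hairpin, had signals of 83.4 and 91.5 after knock-down and 1813 and 1882 with the empty vector. Its log2 difference, knock-down minus empty vector, was -4.15, which accords with the labels of the arrays. All differences are of log2(signal + 18), a scale that understates the change of dim genes. The deposited signals had the same trimmed mean, 500.1, on every array, and the array medians ran from 62.5 to 72.1. Measured genes are those whose signal reached the 60th percentile of the array, here 116.4 to 125.5 and called the brightness limit, on both arrays of 1 pool or of both. The size rule for a higher or lower gene asked for 3 things: a log2 difference between pools of 1 or more (2-fold), 0.5 or more with the same sign for each of the 4 pairs of arrays, and a brighter pool above the brightness limit on both arrays. A gene with several probe sets is represented by its brightest. The ratios of 3' to 5' signal, a sign of RNA integrity, were 0.96 to 1.02 for GAPDH and 1.17 to 1.18 for ACTB over the 4 arrays.

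Of the 9 members, 6 were measured (IL1B, IL1RN, IL18, IL18BP, IL1RAP and IL18R1) and 3 were not (IL1A, IL1R1 and IL1R2). IL18 met the size rule as higher and IL1RAP as lower in the knock-down pool, and the other 4 measured members met it in neither direction. Over all 10288 measured genes, the rule called 2.44% higher and 1.1% lower, 3.54% in all, and 3.31% and 0.739% when arrays were scaled to equal medians. The measured members had 3 positive and 3 negative differences, with a median of 0.10, against a median of 0.05 over all measured genes. The median size of their difference, regardless of sign, was 0.86, against 0.24 over all measured genes. Since the members were picked with earlier results known, these comparisons are descriptions only. The knock-down and empty-vector arrays did not overlap for any of the 6 measured members, which was also so for 72% of all measured genes. Set against technical spread alone, limma gave all 6 an adjusted p of 0.05 or under, as it did 28.1% of measured genes. With the replica number as a block, 5 of them (not IL18R1) passed, as did 31.6% of measured genes. These fits compare the RNA pools and not the conditions.

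**Figure D1:**
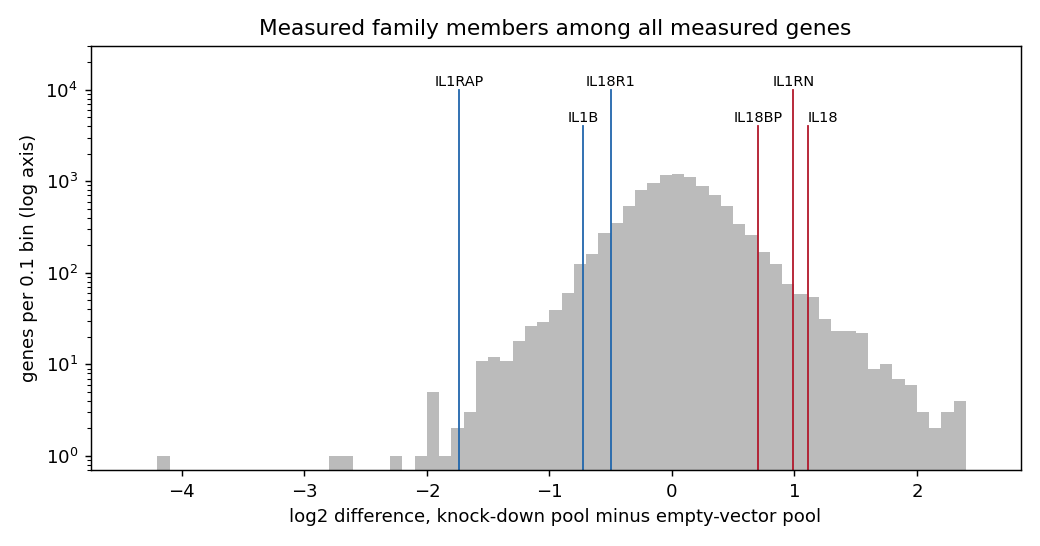
Histogram of the log2 difference, knock-down pool minus empty-vector pool, of all 10288 measured genes, with the number of genes per bin on a log axis; the vertical lines mark the 6 measured family members. IL1RAP lies at -1.73 on the lower side and IL18 at 1.11 on the upper side, with IL1B, IL18R1, IL18BP and IL1RN between them.

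Among the ligands, IL18 and IL1B differed in opposite directions. IL18, the interferon-gamma-inducing cytokine, is reported by 1 probe set, 206295_at. Its signals were 1125 and 1115 for the knock-down, against 488.5 and 532.4 for the empty vector. Every knock-down value lay above every empty-vector value, and the knock-down arrays were nearly equal. The log2 difference was 1.11, or 2.15-fold, and the 4 array pairs ran from 1.04 to 1.17. Of the measured genes, 98.1% had a lower difference than IL18.

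IL1B, the main secreted form of interleukin-1 in monocytes, is reported by 2 probe sets, both measured. On the brighter, 39402_at, the signals were 236.3 and 201.5 in the knock-down pool, and 399 and 346.7 in the control pool. The values were lower on both knock-down arrays, with a log2 difference of -0.72, or 1.65-fold, and array-by-array differences from -0.93 to -0.52. This fell short of the 2-fold limit. The other probe set, 205067_at, gave 149.4 and 171.3 against 199.7 and 189.7. Its difference had the same sign but was smaller, at -0.26.

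IL1A, which encodes the form of interleukin-1 that is active without cleavage and is often cell-bound, lay below the brightness limit on all 4 arrays with both of its probe sets. On the brighter, 208200_at, the signals were 27.5 and 32.9 after knock-down and 50.4 and 50.1 with the empty vector. The knock-down values were the lower ones, with a log2 difference of -0.50, at a brightness where no call was made. The other, 210118_s_at, ranged from 3.20 to 27.4 with the pools overlapping.

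The antagonists IL1RN and IL18BP both had positive differences and neither met the size rule. IL1RN has 5 probe sets, of which 3 were measured. On the brightest, 212657_s_at, the signals were 1062 and 1073 for the knock-down, against 522.8 and 533.8 for the empty vector. The arrays of each pool were close together and the pools well apart, with a log2 difference of 0.99, or 1.99-fold, just under the 2-fold limit. Without empty-vector replica 2, the difference of IL1RN was 1.01 and the gene met the size rule. On 216243_s_at the signals were 550 and 549.1 against 242 and 326.4. That difference was 0.92, and its 4 array pairs ran from 0.72 to 1.13.

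The third measured IL1RN probe set, 212659_s_at, did not show this separation. Its signals were 358.9 and 242.1 in the knock-down pool, and 274.3 and 236.8 in the control pool, so that the pools overlapped, and its difference was 0.20. The remaining IL1RN probe sets, 216244_at and 216245_at, had signals from 1.80 to 54.3, below the brightness limit on every array. Averaged over all 5 probe sets, the log2 difference of IL1RN was 0.41. IL1RN is transcribed from several start sites into secreted and intracellular forms, and the files do not say which form each probe set reports.

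IL18BP has 3 probe sets, of which 2 were measured. On the brightest, 222868_s_at, the signals were 534.1 and 594 after knock-down and 314.7 and 364 with the empty vector. Both knock-down values were above both empty-vector values, with a log2 difference of 0.71, or 1.63-fold, and array-by-array differences from 0.53 to 0.88. Like those ending in _s_at, the identifier of 224283_x_at marks probes shared with other transcripts. This probe set gave 146.5 and 162.7 against 82.1 and 87.6. Its difference, 0.75, was close to that of the brightest, and its empty-vector signals lay below the brightness limit. The remaining, dim probe set, 219323_s_at, had signals from 17.4 to 31.3 and the opposite sign, at -0.42, and the mean over all 3 was 0.35.

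**Figure D2:**
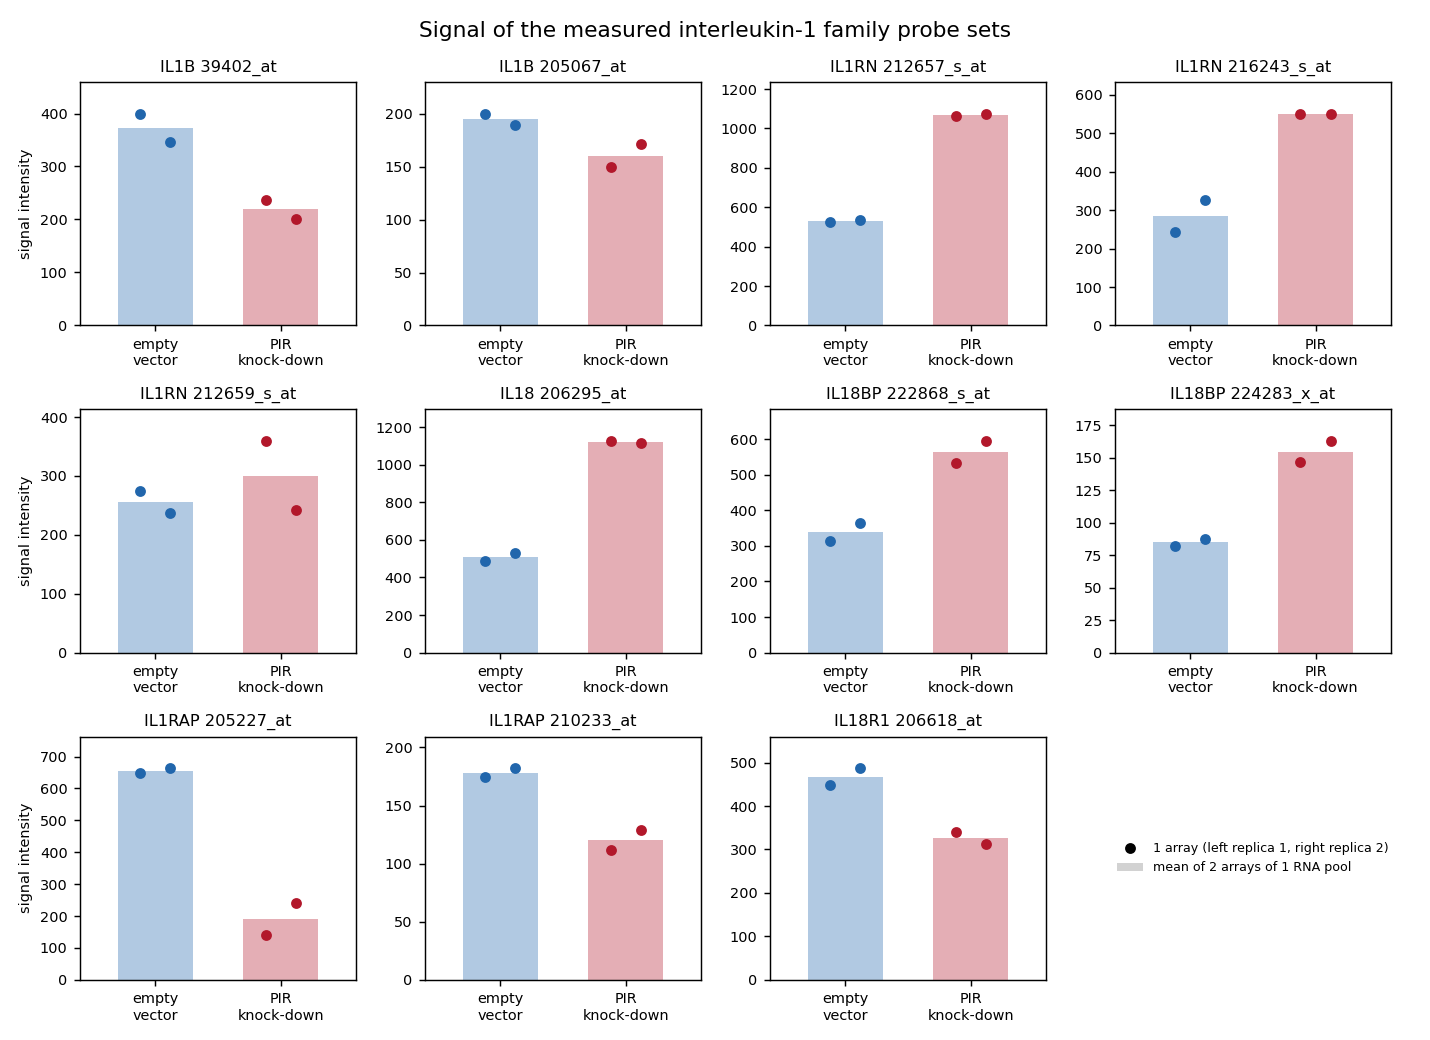
Signal intensity (linear axis from 0) of the 11 measured family probe sets; each panel is 1 probe set, points are single arrays and bars are the mean of the 2 arrays of an RNA pool. IL18 and 2 of the 3 IL1RN probe sets are higher on the knock-down arrays, both IL1RAP probe sets and both IL1B probe sets are lower, and the IL1RN probe set 212659_s_at overlaps between the pools.

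Among the receptor chains, IL1RAP had the largest difference of the family. IL1RAP encodes the accessory chain that the interleukin-1 receptor needs for signalling, and which the receptors for interleukin-33 and interleukin-36 also use. On its brighter probe set, 205227_at, the signals were 140.7 and 239.7 for the knock-down, against 647.1 and 663 for the empty vector. Both knock-down values were far below both empty-vector values, but they were also well apart from each other. The log2 difference was -1.73, or 3.33-fold, and the 4 array pairs ran from -2.10 to -1.37. Of the 10288 measured genes, 12 had a lower difference.

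The spread between the knock-down arrays of IL1RAP was an SD of 0.49 on the log2 scale, against a median of 0.07 over all measured genes, and the empty-vector arrays had an SD of 0.02. The other IL1RAP probe set, 210233_at, gave 112 and 128.7 in the knock-down pool, and 174.3 and 182 in the control pool. It was lower too, but with a difference of -0.51, or 1.42-fold. The mean over both, -1.12, still met the size rule. IL1RAP is known to be spliced into membrane and soluble forms, and the files do not say which form each probe set reports.

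IL18R1, the ligand-binding chain of the interleukin-18 receptor, is reported by 1 probe set, 206618_at. Its signals were 339.8 and 312.2 after knock-down and 448.4 and 486.8 with the empty vector. The knock-down values were the lower ones, opposite in sign to the ligand IL18, with a log2 difference of -0.50, or 1.41-fold. It did not meet the size rule.

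IL1R1, the signalling receptor for interleukin-1, lay below the brightness limit on every array. On its brighter probe set, 215561_s_at, the signals were 48.5 and 33.4 for the knock-down, against 44.4 and 29 for the empty vector. These values overlapped between the pools, and the other probe set, 202948_at, had signals from 3.30 to 21.5. Without detection calls these arrays do not show whether IL1R1 was expressed.

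IL1R2, the decoy receptor, was also below the brightness limit on all 4 arrays. On 205403_at the signals were 100.6 and 113.4 in the knock-down pool, and 31.2 and 72.6 in the control pool, a log2 difference of 0.90. On 211372_s_at they were 14.5 and 70.2 against 4.50 and 6.10, a difference of 1.20. On both probe sets the knock-down values were the higher ones, and the spread within a pool was large, with an SD of 0.62 between the empty-vector arrays of the former and array-by-array differences from 0.43 to 1.97 for the latter.

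**Figure D3:**
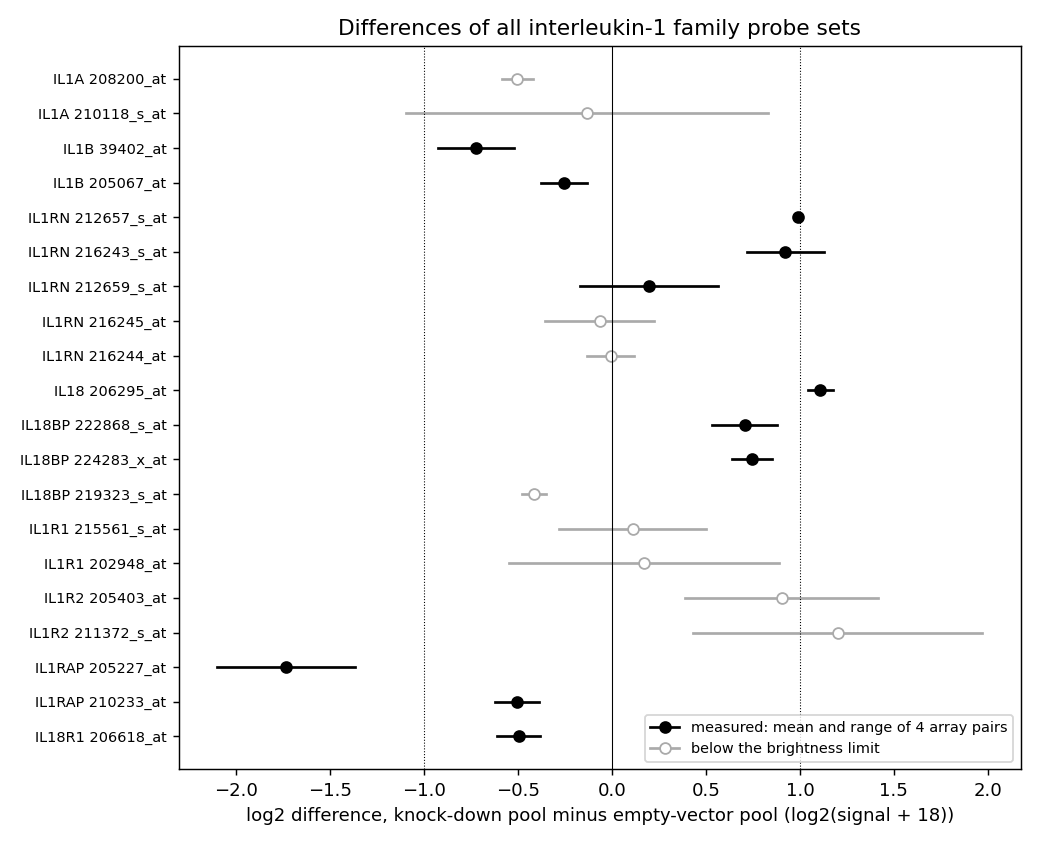
Log2 difference, knock-down pool minus empty-vector pool, of all 20 family probe sets; points are pool differences, lines span the 4 array-by-array differences, open grey symbols are probe sets below the brightness limit, and dotted lines mark the 2-fold limit. IL18 206295_at lies above the upper limit with a short line, IL1RAP 205227_at below the lower limit with a long one, and IL1RN 212657_s_at just inside the upper limit.

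Over probe sets, 11 of the 20 were measured, of which 1 met the size rule as higher and 1 as lower, against 2.29% and 1.45% of all 21933 measured probe sets. Arrays of the pools did not overlap for 5 of the 11 on the higher side and 5 on the lower side, against 37.4% and 33.3%, together 70.6%, of all measured probe sets. Measured probe sets of 1 gene had the same sign in each of the 4 members that had several, and their sizes differed most in IL1RAP and IL1RN.

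Members in the same stretch of a chromosome did not all share a direction. IL1B and IL1RN lie on chromosome 2, in a stretch that also holds IL1A, IL37, the interleukin-36 genes and IL1F10, and their differences were -0.72 and 0.99. IL1R2, IL1R1 and IL18R1 lie in another stretch of that chromosome, with IL1RL2, IL1RL1 and IL18RAP, and of these 3 members IL18R1 alone was measured. IL18 and IL18BP are on chromosome 11, apart from each other, and both had positive differences.

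The other genes of the pathway were taken from 6 lists. These lists were chosen with earlier results of these data known, so their medians and shares are descriptions and not tests. None of the 7 other ligands of the family (IL33, IL36A, IL36B, IL36G, IL36RN, IL37 and IL1F10) was measured. Of the 6 other receptors of the family, 2 were measured and neither met the size rule. SIGIRR, an inhibitory receptor, had a log2 difference of 0.31, and IL18RAP, the accessory chain of the interleukin-18 receptor, had -0.27. IL18RAP signals were 249.1 and 263.5 after knock-down and 334.2 and 292 with the empty vector, so that, like IL18R1, it had its lower values in the knock-down pool.

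Downstream of the receptors, 14 of the 16 listed signalling genes (15 on the array) were measured, none met the size rule, and their median difference was 0.05, equal to that of all measured genes at this rounding. With single arrays left out, that median ran from -0.03 to 0.11. The largest difference in this list was that of CHUK, a catalytic subunit of the IkB kinase, at -0.59, with signals of 1111 and 1014 for the knock-down, against 1653 and 1551 for the empty vector. MYD88, the adaptor of the receptors, stood at 0.04 and was chosen for mention with its value known. The signalling chain between receptor and NF-kB had differences of less than 2-fold in all measured genes of the list.

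Genes of processing and release had a median difference above that of all measured genes. Of 19 listed, 18 were on the array under a symbol of their own and 15 were measured. Of these, 13 had a positive and 2 a negative difference, against 55.2% positive over all measured genes, and the median was 0.39. That median was 0.28 with probe sets averaged and 0.52 with arrays scaled to equal medians, against 0.01 and 0.17 over all measured genes. Some signs depended on the probe set. In CARD8 and CAPN1, chosen with their values known, the brightest was positive and the other measured ones were negative. CARD16, a caspase-1 relative that consists of little more than the CARD domain, was the 1 member to meet the size rule, as higher, with signals of 202 and 205.3 on the knock-down side, and 99.2 and 75.2 in the control pool. Its difference was 1.08, or 2.12-fold, and its other probe set was dim with a difference of -1.37. The CARD16 call was lost under the larger pseudocount, under the stricter brightness limit, with the mean over a gene's probe sets and without empty-vector replica 2.

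CASP1, which encodes caspase-1 and was chosen with its values known, had 5 measured probe sets with differences from 0.52 to 1.46. Its brightest, 209970_x_at, had signals of 3243 and 3223 against 2071 and 2028, a difference of 0.65 that did not meet the size rule. The 206011_at probe set, with signals of 525.4 and 444.6 against 168.1 and 160.3, did meet it. CASP1 and CARD16 are close in sequence. All CASP1 probe sets but 206011_at have identifiers ending in _x_at or _s_at, which mark probes shared between transcripts. Their signals thus cannot be fully assigned to 1 gene. NLRP3, an inflammasome sensor likewise chosen with its value known, stood at 0.01.

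Genes known to be induced by interleukin-1 had a median difference below that of all measured genes. Of 19 listed, 16 were on the array under a symbol of their own and 10 were measured, 8 had a negative and 2 a positive difference, against 44.8% negative over all measured genes, and the median was -0.69. With the dim genes of the list included, the median was -0.33. CXCL8, the neutrophil chemoattractant interleukin-8, and CCL2, a monocyte chemoattractant, met the size rule as lower. CXCL8 had signals of 918.2 and 961.9 after knock-down and 6634 and 6074 with the empty vector, a difference of -2.73, and CCL2 had 3945 and 4027 against 10323 and 11013, a difference of -1.42. The positive members were ICAM1 at 0.75 and TNFAIP3 at 0.37. IL6 was below the brightness limit on all 4 arrays. Whether interleukin-1 signalling had a part in the differences of this list was not tested.

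The listed regulators of IL1B transcription did not include a gene that met the size rule. Of 9 listed, 8 were measured, with a median of 0.21, and the largest difference was 0.44, for REL, an NF-kB subunit. SPI1, CEBPB and IRF8, transcription factors of the myeloid lineage chosen with their values known, had the 3 negative differences, from -0.24 to -0.13.

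**Figure D4:**
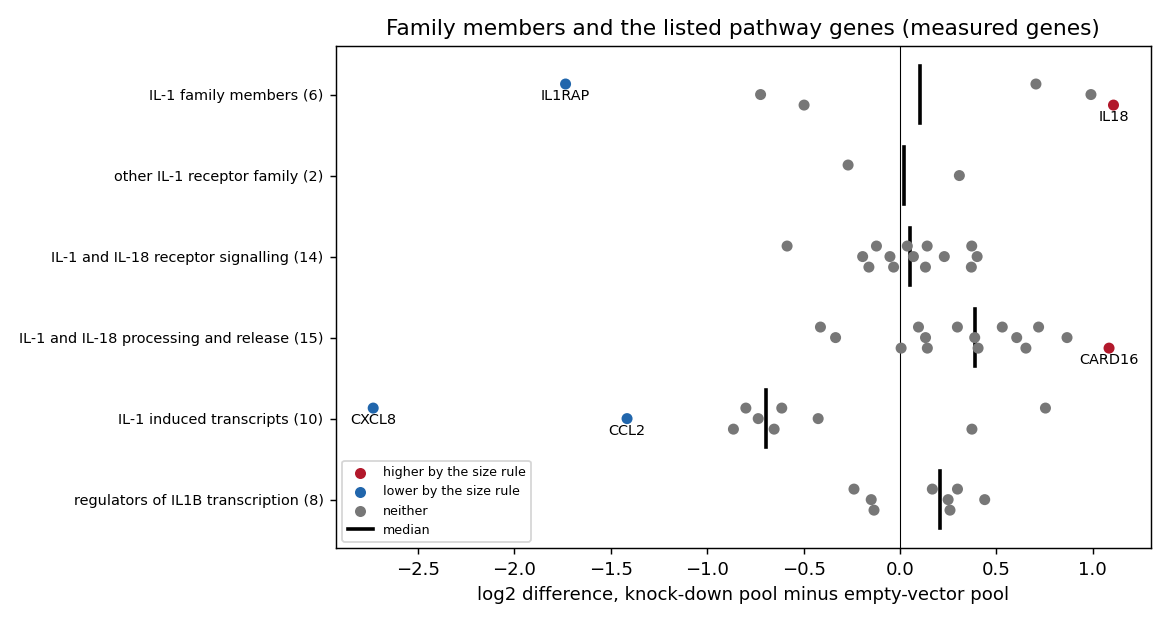
Log2 difference, knock-down pool minus empty-vector pool, of the measured genes in the family and in the 5 pathway lists that had measured genes, with the number of measured genes in parentheses; red and blue points met the size rule and bars are medians. The list of interleukin-1-induced transcripts has its median at -0.69 and the list of processing and release at 0.39.

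Of 12 listed myelomonocytic markers, 10 were on the array under a symbol of their own and 7 were measured, of which 6 had positive differences; ANPEP, at 1.03, was the 1 that met the size rule. Their median difference was 0.69, against 0.05 over all measured genes, of which 55.2% had positive differences. The summed signal of the 10 on the array was 42831 and 47819 for the knock-down, against 39747 and 40173 for the empty vector. LYZ made up most of that sum, with 25100 and 30525 against 27356 and 27533, a log2 difference of 0.01. CD14, MPO and FCGR1A were below the brightness limit on all 4 arrays. Of 20 markers of lymphoid, erythroid, megakaryocytic, fibroblast and epithelial cells on the array, 4 were measured and none met the size rule. The summed signals of these lists were 308 to 336.9 against 231.9 to 238.5 for T and NK cells, 664.6 to 796.2 against 721.6 to 975.9 for B cells, 204.4 to 234 against 162 to 170.6 for erythroid cells and megakaryocytes, and 309 to 497.1 against 393 to 410.7 for fibroblasts and epithelium. These sums include genes below the brightness limit, as 1 of 6 T and NK markers was measured. For B cells it was 2 of 4, for erythroid cells and megakaryocytes 0 of 3, and for fibroblasts and epithelium 1 of 7. The part of the marker differences in the family's differences was not tested. In a bulk RNA pool, fewer cells that express a gene and less of its RNA per cell cannot be told apart.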

How the data were processed

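Total RNA was measured on 4 HG-U133 Plus arrays, 2 per condition, from 1 RNA pool per condition. The authors deposited linear signal intensities, 1 for each probe set on each array; the submitters' processing notes name GCOS, with settings not given in the sources used here. Equal trimmed means (2% at each end) show that arrays were scaled to a common level, which assumes equal total signal in the pools. Of 54675 probe sets, 62 controls were left out, and 41091 had 1 gene symbol (platform annotation, updated through gene identifiers).

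The 2 arrays of a pool were averaged as 1 sample. Differences used log2(signal + 18), where 18 is the mean 25th percentile of signal, rounded. The members, lists and rules were chosen with earlier results of these data known. Named genes were all members, PIR, listed genes that met the size rule and the largest difference per list. All other genes given with values or calls, such as IL18RAP, ICAM1, TNFAIP3, IL6, CASP4, CXCL2, NLRC4, CD14, MPO and FCGR1A, were chosen after their values were seen. Alternatives were other pseudocounts, brightness limits, normalizations and limits, no margin, averaged probe sets, each array left out, and limma (lmFit, eBayes with trend), either with the replica number as a block or without it, on 54613 probe sets with Benjamini-Hochberg adjustment. The limma fits compare pools against technical spread between arrays of a pool only. With 1 RNA pool per condition, no spread between cultures can be had. The 2 arrays per pool limit the precision of the pool values. Software was limma 3.58.1 in R 4.3.3, and pandas 2.3.3 with numpy 2.4.6 in Python 3.11.15.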

Additional observations from a re-analysis of the deposited data

How the results depend on the processing

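IL18 met its limit as higher and IL1RAP as lower under every alternative run. The shares given below are of genes, and none was computed for probe sets under the alternatives. With no pseudocount, 2 members and 2 family probe sets were higher, IL1RN joining IL18, against 2.86% of all measured genes; under median scaling, which moved the median of all measured genes from 0.05 to 0.17, 2 members and 3 probe sets were higher, against 3.31% of all measured genes. At a 1.5-fold limit 3 members were higher (IL18, IL1RN and IL18BP) and 2 lower (IL1RAP and IL1B), with 5 probe sets higher and 2 lower, and 5 pathway genes were higher and 6 lower, against 6.98% and 3.8% of all measured genes. Single arrays left out gave 1 to 2 members and 1 to 3 probe sets higher, the most without empty-vector replica 2, 1 member and 1 probe set lower, and 1 to 2 pathway genes higher, the most without empty-vector replica 1, CASP4 joining CARD16, and 2 to 3 lower, the most without knock-down replica 2, CXCL2 joining CXCL8 and CCL2, against 2.61% to 2.88% of all measured genes higher and 1.33% to 1.68% lower. Without empty-vector replica 2 the 1 pathway gene called higher was NLRC4 and not CARD16. With the call of CARD16 lost, 0 pathway genes were higher under the larger pseudocount, the 75th percentile as brightness limit and the mean over probe sets. The limma counts cover all 9 members, 20 family probe sets and 71 pathway genes on the array, measured or not. The shares beside them cover measured genes only. The limma fit without the replica block, whose error is technical only, had 3 members higher and 3 lower at an adjusted p of 0.05 or under. That fit also had 4 and 3 probe sets, and 12 and 10 pathway genes, against 28.1% of all measured genes. With the replicate block it had 3 members higher and 2 lower, 4 and 2 probe sets, and 14 and 11 pathway genes, against 31.6%; IL18R1 went from an adjusted p of 0.0474 to 0.0510. The replica labels give a number only. Over the measured genes, replica 1 minus replica 2 in the knock-down pool correlated at -0.0045 with the same difference in the empty-vector pool. The cause of these changes was not tested. The absence of detection calls and a dim signal limit IL1A, IL1R1 and IL1R2 most.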
